A study of Homo sapiens with 6 samples.

Results

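The human ZNF zinc finger genes of chromosome 19 were described in A375, an established line of human melanoma cells, after PAL, a Ringer's lactate solution activated by plasma, against control cells. Members were all protein-coding rows of the expression table on chromosome 19 whose symbol is ZNF followed by a number. There were 249 of them among 58735 genes, and 265 protein-coding genes with such symbols lay on other chromosomes. The 6 libraries of poly-A enriched RNA were 3 labelled PAL and 3 labelled control. No allele, transgene or other agent is named in the labels. The sources used here give no dose, exposure time or treatment of the control cells, and do not say whether replicates were separate cultures. The p-values therefore measure a spread between libraries that may be technical.

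Proteins of this family bind DNA through tandem C2H2 zinc fingers, and most of those on chromosome 19 also carry a KRAB domain. KRAB recruits TRIM28 (KAP1), which brings the histone methyltransferase SETDB1, HP1 proteins and deacetylases to the bound site, and many KRAB zinc finger proteins silence transposable elements in this way. The genes arose by repeated tandem duplication and stand in clusters along the chromosome, where neighbours are often each other's closest relatives.

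Depth ranged from 16053009 to 17711389 assigned reads in PAL libraries and from 15064971 to 16081733 in control libraries. Heat shock genes were high in the libraries labelled control: HSPA6, an inducible HSP70, stood at 20.7, 27.4 and 73.2 FPKM in PAL libraries and averaged 1882 FPKM in control libraries. FPKM is a read count divided by the gene's length and by a library size. The groups are called by their labels throughout, every direction below rests on those labels, and whether control cells were stressed or labels exchanged was not tested. PAL replicate 3 lay nearest to control for HSPA6, and counts are given below with and without the libraries numbered 3 where they differ. Of 11 melanocyte and melanoma markers, 6 passed the expression filter, 1 was higher and 1 lower, with a median log2 difference of -0.06. SOX10, a neural crest and melanocyte factor, was higher (108 FPKM in PAL and 88.1 in control) and S100B, a calcium-binding protein, lower (4.03 and 5.18 FPKM), while the pigment genes TYR, MLANA and DCT were at or near 0 in both groups. The summed FPKM of 5 leukocyte markers was 3.35 to 4.33 in PAL and 4.06 to 5.01 in control, that of 5 fibroblast markers 3.27 to 4.69 and 4.32 to 4.81, and that of 3 endothelial markers 0.142 to 0.199 and 0.118 to 0.172. Most of the leukocyte sum was LYZ and most of the fibroblast sum LUM, neither of them called. Keratinocyte markers summed to 30.8 to 33.4 FPKM in PAL and 31.5 to 36.4 in control, most of it KRT10, while KRT1 and DSG3 were at 0. KRT14 was lower (2.87 FPKM in PAL and 3.80 in control, limma adjusted p = 0.0422). KRT5, below the filter, was also lower without overlap (0.0566 and 0.142 FPKM).

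The family as a whole was expressed at low and similar levels in both groups. Reads of the 249 members made up 0.212%, 0.209% and 0.216% of assigned reads in PAL libraries and 0.203%, 0.204% and 0.205% in control libraries. In FPKM, which is per length and as the authors scaled it, their sum was 412, 407 and 422 in PAL and 424, 419 and 420 in control. The read shares did not overlap between the groups and were higher in PAL, whereas the FPKM sums overlapped. The library size behind the deposited FPKM was 1.04 to 1.05 times the plain read total in PAL and 0.980 to 0.984 times in control, and the effect of that scaling on the calls is given further below. In bulk RNA, fewer transcripts per cell and fewer expressing cells cannot be told apart.

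The median member had a mean level of 1.06 FPKM, and 3 members had no read in any library. ZNF146, which consists almost entirely of zinc fingers and lacks KRAB, was the highest at 29.7 ± 0.473 FPKM in PAL and 28.2 ± 1.41 in control (SD, n = 3 each). ZNF428 followed with 17.1 ± 0.840 and 14.6 ± 1.14 FPKM, and ZNF787 with 13.3 ± 0.517 and 13.2 ± 0.179. ZNF146 and ZNF787 did not pass the test, with limma adjusted p of 0.222 and 0.997. ZNF146 was called higher after rescaling to TPM (0.15, adjusted p = 0.0431) or by plain read totals (0.16, adjusted p = 0.0276). ZNF428 passed narrowly, at a log2 difference of 0.21 and an adjusted p of 0.0447; the call was lost without any 1 of the 6 libraries, with an adjusted p of up to 0.131, and 27.6% of its exon length overlaps a gene on the other strand. Only 10 members reached a mean of 5 FPKM and 25 lay below 0.1 FPKM. Reads per member had medians of 86 to 102 in PAL libraries and 77 to 85 in control libraries, so differences in the lower members rest on few reads.

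Genes with at least 1 FPKM in at least 3 libraries were tested, which took in 132 members. Of these, 42 (31.8%) differed between PAL and control at an adjusted p below 0.05, against a background of 25.9% of all 12258 genes tested. In PAL 17 were higher (12.9%, against 11.4% of all genes tested) and 25 lower (18.9%, against 14.5%). The median log2 difference, PAL minus control, was 0.01 over the tested members and 0.00 over all genes tested. PAL and control values did not overlap in 66 of the 132 members (50%), 32 with PAL above and 34 below, against 44.9% of all genes tested. These counts describe the members that passed the filter. Of those, 4 passed through PAL values alone and 3 of the 4 were among the rises, while 5 passed through control values alone and 4 of the 5 were among the falls, so such genes had to differ. ZNF878, ZNF850, ZNF57 and ZNF441 are those 4 falls, and ZNF681, ZNF726 and ZNF607 those 3 rises. Values did not overlap in any of the 42 called members, and the largest rises and falls were named on that condition. Lack of overlap stated for a called gene below is therefore no further support. The total share called was of similar size in the comparison groups, and no test of the difference was made. Of 172 tested ZNF genes on other chromosomes, 60 were called (34.9%), 33 higher (19.2%) and 27 lower (15.7%). Of 586 other tested protein-coding genes of chromosome 19, 186 were called (31.7%), 128 higher (21.8%) and 58 lower (9.9%). The calls in this last group were thus mostly rises, while those of the members were mostly falls.

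The split between rises and falls depended on the scaling. Rises made up 40.5% of the member calls as the authors scaled the values, 57.4% after rescaling to TPM (27 higher, 20 lower) and 61.5% after scaling by plain read totals (32 higher, 20 lower). Over all genes tested the same share moved further, at 44% as scaled by the authors, 69.7% under TPM and 73.3% under plain read totals, and the median moved by 0.07 and 0.08 on the log2 scale. No call of a member turned direction in any of the 19 alternative settings, and 19 of the 42 calls, 6 higher and 13 lower, held in the fit and in every alternative. Without both libraries numbered 3, the calls came to 27 members, 9 higher and 18 lower, against a background of 18.5% (7.66% higher, 10.9% lower). With voom on the recovered reads, 26 were higher and 28 lower, against 13.7% and 18.1% of all genes tested. Leaving out 1 library gave 22 to 33 calls (16.7% to 25%), against 15.1% to 22.8% of all genes tested. The count was 25 when PAL replicate 1 was dropped, 22 for PAL replicate 2 and 26 for control replicate 2. PAL replicate 3 was the PAL value nearest to control in 12 of the 25 falls and 9 of the 17 rises, and control replicate 1 the control value nearest to PAL in 12 falls and 10 rises.

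**Figure D1:**
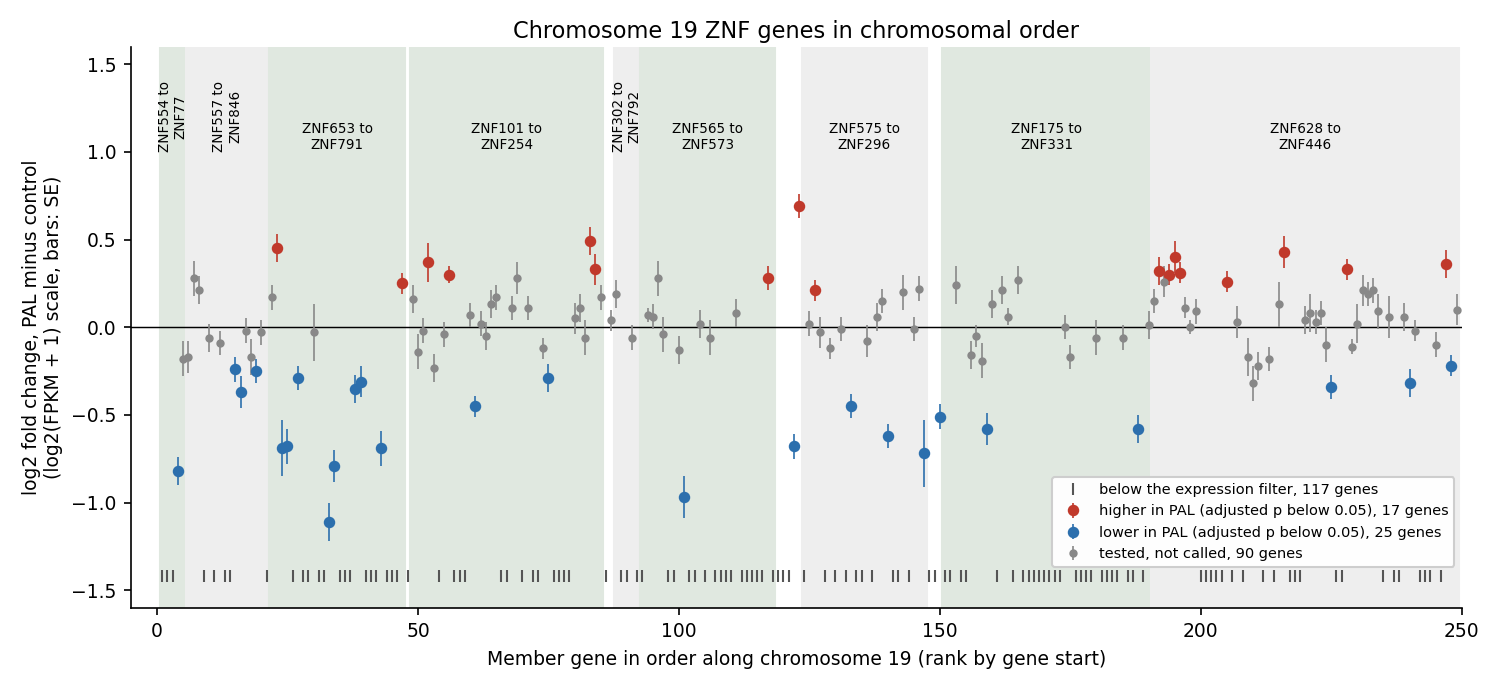
Log2 fold change (PAL minus control, on the log2(FPKM + 1) scale, bars SE) of the 132 tested ZNF genes, in order along chromosome 19, with 117 untested genes as ticks at the bottom and blocks of 5 or more genes shaded. The 17 rises (red) reach 0.69 and the 25 falls (blue) reach -1.11, and the falls crowd in the block from ZNF653 to ZNF791.

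Changes were moderate in size. Rises ran from 0.21 to 0.69 and falls from -0.22 to -1.11 on the log2(FPKM + 1) scale, which understates the change of low genes. By mean FPKM, 6 falls were at least 2-fold and 0 rises were, but 4 of the 6, ZNF878, ZNF850, ZNF57 and ZNF441, passed the filter through control values alone and so had to be low in PAL. The 249 genes were grouped by position, with a new block wherever the next gene started over 1 Mb further on. This gave 16 blocks, of which 9 held 5 or more genes and 238 genes together; the 11 others included 4 tested genes, 1 higher and 2 lower.

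The block from ZNF653 to ZNF791 (chromosome 19, 11.5 to 12.6 Mb, hg38) held 8 of the 25 falls. It has 26 members, of which 12 were tested. In PAL 8 were lower (66.7%, against 14.5% of all genes tested) and 2 higher (16.7%, against 11.4%), with a median log2 difference of -0.33. Among the falls, ZNF878 and ZNF441 passed the filter through control values alone and so had to be low in PAL. The 8 falls were ZNF823, ZNF441, ZNF440, ZNF878, ZNF844, ZNF136, ZNF44 and ZNF443, in that order along the chromosome. They lay between the 2 rises, ZNF627 at one end and ZNF791 at the other, and ZNF700 among them had overlapping values (2.62 ± 0.337 FPKM in PAL and 2.75 ± 0.786 in control, adjusted p = 0.909). The 3 tested protein-coding genes of other families in the block all stand near its first end, and none was lower: ECSIT, an adaptor of innate immune signalling and mitochondrial complex I assembly, was higher (33.4 ± 0.590 FPKM in PAL and 29.8 ± 0.933 in control, adjusted p = 0.0138), and ELOF1 and ACP5 did not pass, though both were called higher under TPM (adjusted p of 0.0183 and 0.0498) and plain read totals (0.0139 and 0.0383). The counts per block are a description, with no test. Of 22 tested members with at least 20% of their 31-base words in another gene's transcripts, 7 were lower (31.8%) and 2 higher. Of the 110 others, 18 were lower (16.4%) and 15 higher. ZNF440, ZNF878 and ZNF443 were among the 22, while ZNF823, ZNF441, ZNF844, ZNF136 and ZNF44 were among the others. Whether related genes fell through shared reads was not tested, so the 8 falls may not be separate observations.

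ZNF878 (chr19:12043805-12052939, minus strand) had the largest fall of the family. Its level was 0.251, 0.276 and 0.532 FPKM in PAL libraries and 1.82, 2.18 and 1.75 FPKM in control libraries. The groups lie far apart, with PAL replicate 3 the highest of the PAL values. The log2 difference was -1.11 with an SE of 0.11 (adjusted p = 0.000828), or 5.43-fold lower in PAL by mean FPKM. These values stand on 8, 8 and 17 reads in PAL and 50, 56 and 47 in control. Of its 31-base words, 25.5% also occur in transcripts of another gene, and 19% of its exon length overlaps a gene on the same strand, so reads shared with such genes cannot be told apart. Among all 1780 falls of the table it ranked 156.

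ZNF844 (chr19:12064699-12081565, plus strand) starts next to it and fell as well. It had 0.994, 0.923 and 1.18 FPKM in PAL and 2.61, 2.70 and 2.20 FPKM in control, with every PAL value below every control value. The log2 difference was -0.79 ± 0.09 (SE; adjusted p = 0.00127), on 102 to 144 reads in PAL and 226 to 274 in control.

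ZNF441 was at 0.733, 0.568 and 0.652 FPKM in PAL and 1.49, 1.99 and 1.5 FPKM in control, a log2 difference of -0.68 ± 0.10 (SE; adjusted p = 0.00394). ZNF443 was at 0.810, 0.783 and 1.24 FPKM in PAL and 1.97, 2.26 and 2.13 FPKM in control, a log2 difference of -0.69 ± 0.10 (adjusted p = 0.00477). Neither overlapped between groups, but 56.4% of the 31-base words of ZNF443 occur in another gene's transcripts, so its level is uncertain. ZNF823 was at 1.55, 1.51 and 2.34 FPKM in PAL and 3.65, 4.26 and 2.68 FPKM in control. Its PAL replicate 3 and control replicate 3 lay close together, and its call (-0.69 ± 0.16, adjusted p = 0.0215) was lost without PAL replicate 1 or 2 or control replicate 1 or 2, with an adjusted p between 0.00115 and 0.0760 over the alternatives.

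The other 3 falls of the block were smaller. ZNF440 changed by -0.29 (1.80 ± 0.0689 FPKM in PAL and 2.44 ± 0.189 in control), ZNF136 by -0.35 (1.38 ± 0.192 and 2.03 ± 0.0877) and ZNF44 by -0.31 (0.987 ± 0.179 and 1.46 ± 0.104). These genes, together with ZNF700 and ZNF791, were outside the rule for named genes and were chosen after their values were seen. The ZNF44 call was lost without any 1 of the 6 libraries, that of ZNF136 without replicate 2 or 3 of either group, and that of ZNF440 without replicate 1 or 2 of either group, with adjusted p of up to 0.127, 0.111 and 0.0658. The count of 8 falls was 4 to 6 with 1 library left out, 4 without PAL replicate 2 or control replicate 2, 5 without PAL replicate 1 or control replicate 1, and 6 without both libraries numbered 3. It was 7 under TPM or plain read totals. At the edges, ZNF627 was higher, with 1.85, 1.94 and 1.56 FPKM in PAL and 1.07, 0.953 and 1.08 FPKM in control (0.45 ± 0.08, adjusted p = 0.00822). ZNF791 was also higher (4.08 ± 0.179 FPKM in PAL and 3.28 ± 0.252 in control, 0.25 ± 0.06), a call lost without control replicate 1 or 2 or any PAL library, with an adjusted p of up to 0.0853.

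**Figure D2:**
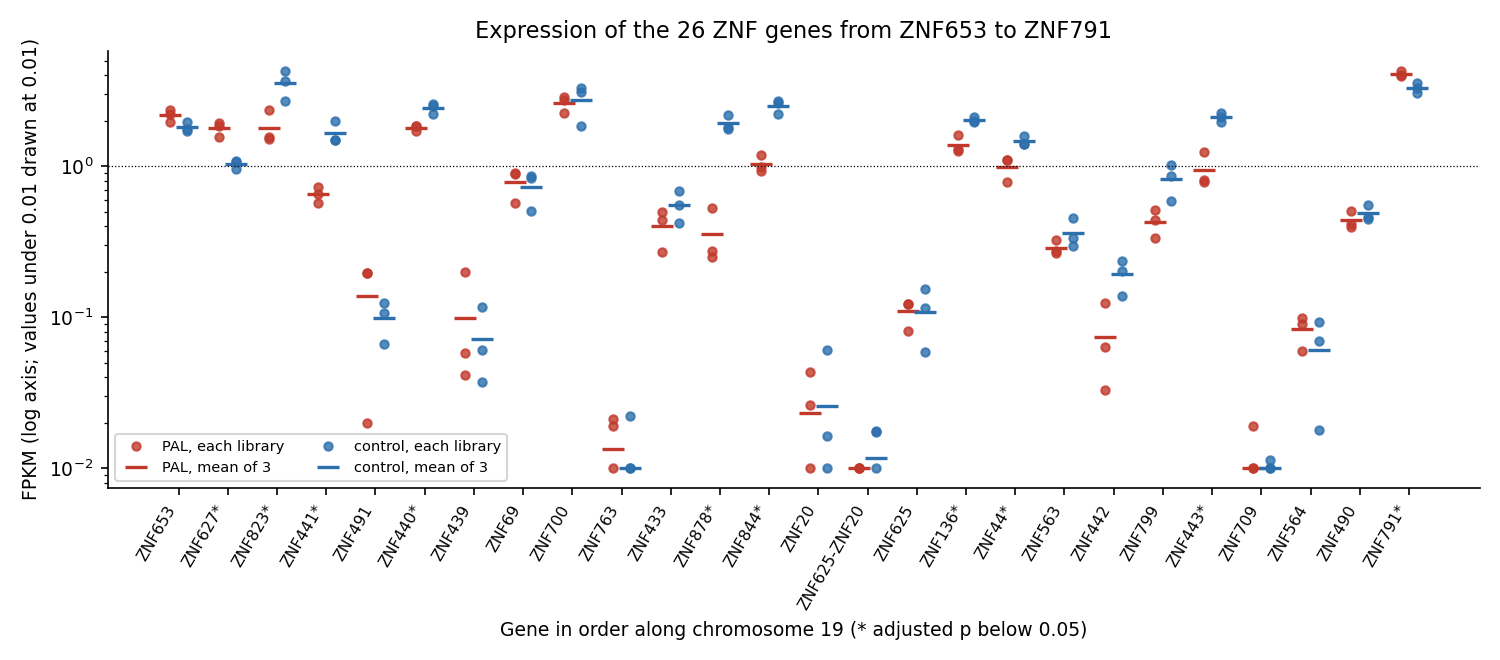
FPKM (log axis, values under 0.01 drawn at 0.01) of the 26 ZNF genes from ZNF653 to ZNF791 in chromosomal order, with points for the 3 PAL (red) and 3 control (blue) libraries, lines for the means, and a dotted line at 1 FPKM. ZNF878 shows the widest gap, at 0.353 FPKM in PAL and 1.92 in control, and genes at or below 0.1 FPKM overlap between groups.

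The promoters of this block resemble one another, and those of its largest falls are shown for that reason. Each sequence is the 250 bases before the RefSeq start (GRCh38.p14), read 5′ to 3′ on the gene's strand, with CCAAT or its reverse complement in capitals. CCAAT is the core of the box bound by the factor NF-Y. The windows are chr19:12052962-12053211 (minus) for ZNF878, chr19:12064481-12064730 (plus) for ZNF844, chr19:12441022-12441271 (minus) for ZNF443 and chr19:11738947-11739196 (minus) for ZNF823.
ZNF878: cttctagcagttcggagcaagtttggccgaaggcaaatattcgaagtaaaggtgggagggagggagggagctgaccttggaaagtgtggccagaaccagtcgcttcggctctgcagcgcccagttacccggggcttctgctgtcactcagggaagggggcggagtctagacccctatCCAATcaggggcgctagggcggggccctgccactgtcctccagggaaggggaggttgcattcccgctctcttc
ZNF844: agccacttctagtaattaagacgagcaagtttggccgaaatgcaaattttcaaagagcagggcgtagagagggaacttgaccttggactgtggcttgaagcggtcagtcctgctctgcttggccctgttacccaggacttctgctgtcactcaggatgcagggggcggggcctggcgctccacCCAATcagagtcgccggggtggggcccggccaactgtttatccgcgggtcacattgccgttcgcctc
ZNF443: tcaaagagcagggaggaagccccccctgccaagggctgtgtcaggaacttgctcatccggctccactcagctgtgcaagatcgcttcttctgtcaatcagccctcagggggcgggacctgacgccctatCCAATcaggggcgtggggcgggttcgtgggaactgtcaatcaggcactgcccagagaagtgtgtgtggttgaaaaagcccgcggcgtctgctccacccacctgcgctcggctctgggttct
ZNF823: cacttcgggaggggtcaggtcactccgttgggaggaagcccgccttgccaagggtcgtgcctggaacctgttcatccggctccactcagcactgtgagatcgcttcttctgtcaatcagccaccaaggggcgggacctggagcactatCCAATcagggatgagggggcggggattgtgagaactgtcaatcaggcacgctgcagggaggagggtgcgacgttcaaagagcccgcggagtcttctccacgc
All 4 carry CCAAT followed by CAG. The longer word CCAATCAG, searched on both strands after the sequences had been seen, occurs in 7 of the 8 falls of the block, in both rises and in 13 of the 15 other members with a matched promoter, and the word contains the CCAAT box. It occurs in 18.2% of the 192 matched members elsewhere on the chromosome and in 3.81% of all 35116 promoters in the RefSeq table. Rises, falls and untested genes of the block thus share the word.

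Over the whole family, 217 members matched a promoter, 24 of the falls and 16 of the rises among them. CCAAT, searched on both strands, was found in 62.5% of the falls, 68.8% of the rises, 48.1% of the tested members without a call and 32% of all promoters. GAANNTTC, the core of the heat shock element, was found in 0 of 24 falls, 6.25% of the rises, 15.6% of the tested members without a call and 5.78% of all promoters. TGACGTCA, the cAMP response element, was found in 8.33% of the falls, 0 rises, 2.6% of tested members without a call and 1.65% of all promoters, and CACGTG, an E-box, in 8.33%, 0, 5.19% and 6.34%. A match describes these letters in the window and says nothing about binding.

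Beyond that block the largest falls stood apart from one another. ZNF850, a KRAB gene with 29 finger matches at 36.7 Mb, had 0.755, 0.809 and 0.747 FPKM in PAL and 1.95, 2.45 and 3.08 FPKM in control. Its PAL values were nearly the same while its control values were spread, and all lay apart from PAL (-0.97 ± 0.12, adjusted p = 0.00205). ZNF850 passed the filter through control values alone and so had to be low in PAL. It was the only fall among 10 tested genes of the block from ZNF565 to ZNF573, which had 1 rise, ZNF607 (1.15 ± 0.0688 FPKM in PAL and 0.767 ± 0.0486 in control, 0.28), a gene outside the naming rule.

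ZNF57, near the chromosome's short-arm end, had 0.841, 0.695 and 0.816 FPKM in PAL and 2.33, 2.15 and 1.94 FPKM in control. The difference was -0.82 ± 0.08 (adjusted p = 0.000744), but ZNF57 passed the filter through control values alone and so had to be low in PAL. ZNF227, at 44.2 Mb, had 3.83, 3.20 and 3.54 FPKM in PAL and 6.12, 5.57 and 6.16 FPKM in control (-0.62 ± 0.07, adjusted p = 0.0012). Of their exon length, 13.1% in ZNF57 and 19.1% in ZNF227 overlaps genes on the other strand, whose reads cannot be told apart if strand was not used.

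ZNF296, at the end of the block from ZNF575 to ZNF296, is a factor with few fingers and no KRAB pattern. It stood at 2.99, 3.37 and 4.26 FPKM in PAL and 7.64, 7.51 and 4.55 FPKM in control, so both libraries numbered 3 lay close together. Its call (-0.72 ± 0.19, adjusted p = 0.0303) was lost without replicate 1 or 2 of either group, with an adjusted p between 0.0013 and 0.101 over the alternatives. In the block from ZNF557 to ZNF846 the largest change was that of ZNF560, with 1.00 ± 0.224 FPKM in PAL and 1.57 ± 0.0442 in control. That call (-0.37, adjusted p = 0.0305) was lost without PAL replicate 1 or 2 or any control library, with an adjusted p of up to 0.0977. In the block from ZNF175 to ZNF331, which has 40 members and 15 tested, 2 fell (13.3%, against 14.5% of all genes tested) and 0 rose. Both changed by -0.58, and the larger before rounding was ZNF761, with 1.83, 2.22 and 2.08 FPKM in PAL and 3.15, 3.59 and 3.90 FPKM in control (SE 0.08, adjusted p = 0.00381). In the small block from ZNF302 to ZNF792 neither tested gene passed, and ZNF302 had the larger difference (2.94 ± 0.274 FPKM in PAL and 2.46 ± 0.280 in control, 0.19, adjusted p = 0.138).

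A neighbouring pair at 42.1 to 42.2 Mb held the largest rise on the log2(FPKM + 1) scale and a fall of like size. By the ratio of mean FPKM, ZNF681 (1.93-fold) and ZNF526 (1.91-fold) rose about equally. ZNF526 (chr19:42220271-42228201, plus strand) had 3.56, 3.75 and 4.25 FPKM in PAL and 1.86, 2.04 and 2.13 FPKM in control. Every PAL value exceeded every control value, at a log2 difference of 0.69 ± 0.07 (adjusted p = 0.00105), and it ranked 48 among the 1399 rises of the table. ZNF574 (chr19:42068477-42081549, plus strand) starts 151.8 kb before it and had 5.34, 4.78 and 5.84 FPKM in PAL and 9.26, 9.29 and 8.68 FPKM in control. It moved the other way by a like amount, at -0.68 ± 0.07 (adjusted p = 0.000868), also with no overlap. Both lack the KRAB pattern.

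DEDD2, a death effector domain gene that lies between them, runs on the minus strand and starts 131 bases before ZNF526, head to head with it. DEDD2 had 9.86, 9.52 and 9.84 FPKM in PAL and 37.3, 37.1 and 46.4 FPKM in control, a fall of 1.94 on the log2 scale (adjusted p = 2.39e-05). The 2 genes that share this short interval thus changed in opposite directions. Of 7 members with a protein-coding gene starting head to head within 1000 bases, 3 had both genes tested, and this was the only pair with both called. For ZNF627 the partner ELOF1 did not pass (31.6 ± 0.754 FPKM in PAL and 29.7 ± 1.29 in control, adjusted p = 0.147), and for ZNF576, which had no call, the partner IRGQ was higher (0.25, adjusted p = 0.0269). This comparison was added after the values of DEDD2 and ZNF526 had been seen. The 250 bases before the RefSeq start of ZNF526 (GRCh38.p14, chr19:42220062-42220311, plus strand) are shown because the start of DEDD2 lies inside them. They hold CCAAT in both orientations, in capitals.
ZNF526: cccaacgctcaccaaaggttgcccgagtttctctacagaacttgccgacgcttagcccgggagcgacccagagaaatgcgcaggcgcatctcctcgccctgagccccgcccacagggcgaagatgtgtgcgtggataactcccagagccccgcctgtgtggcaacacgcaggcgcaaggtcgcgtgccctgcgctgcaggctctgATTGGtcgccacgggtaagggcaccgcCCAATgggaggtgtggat

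The far end of the chromosome held 8 of the 17 rises, in the block with the most tested members. The block from ZNF628 to ZNF446 (55.5 to 58.5 Mb) has 59 members, of which 38 were tested, 8 higher and 3 lower, with a median log2 difference of 0.08. Its share of rises, 21.1%, was close to the 21.8% among other protein-coding genes of chromosome 19, against 11.4% of all genes tested. The first stretch of it, up to 56.7 Mb, had 16 members and 10 tested, of which 5 were higher, 0 lower and 5 not called. The count of 8 rises was 5 to 8 with 1 library left out, 5 without PAL replicate 2, 4 without both libraries numbered 3 and 13 under plain read totals. ZNF579, ZNF865, ZNF784 and ZNF580, 4 of the 5 rises there, lie within a short stretch with ZNF524, and all lack the KRAB pattern. ZNF524 did not pass, but was called higher under TPM (adjusted p = 0.0317), under plain read totals (0.0303), without PAL replicate 3 (0.0184) and without both libraries numbered 3 (0.0372). ZNF524, ZNF865 and ZNF580 were outside the naming rule and were chosen after their values were seen.

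ZNF865 had 5.36, 5.43 and 5.30 FPKM in PAL and 4.53, 3.99 and 3.97 FPKM in control (0.30 ± 0.06, adjusted p = 0.00899). Its neighbour ZNF784 had 3.75, 3.17 and 2.98 FPKM in PAL and 2.39, 2.36 and 2.01 FPKM in control (0.40 ± 0.09, adjusted p = 0.0164). The next gene, ZNF580, had 4.71, 5.07 and 4.30 FPKM in PAL and 3.71, 3.49 and 3.60 FPKM in control (0.31 ± 0.06, adjusted p = 0.0132). None of these 3 overlapped between groups. ZNF579 had 4.75, 5.18 and 4.41 FPKM in PAL and 4.13, 3.50 and 3.30 FPKM in control, and its call (0.32, adjusted p = 0.03) was lost without PAL replicate 1 or 2 or control replicate 2 or 3, with an adjusted p of up to 0.0985. The calls of ZNF865 and ZNF579 were lost without both libraries numbered 3, at an adjusted p of 0.0518 and 0.0694.

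Further along, the rises were KRAB genes that lay further apart. ZNF772 had 3.13, 2.66 and 2.72 FPKM in PAL and 1.78, 2.14 and 1.61 FPKM in control (0.43 ± 0.09, adjusted p = 0.0134). ZNF776 had 2.40, 2.48 and 2.16 FPKM in PAL and 1.71, 1.66 and 1.64 FPKM in control (0.33 ± 0.06, adjusted p = 0.0114). Neither overlapped, though the ZNF772 call was lost without both libraries numbered 3. ZNF324B and ZNF324, related genes 15.4 kb apart, moved in opposite directions. ZNF324B had 1.87, 2.13 and 2.18 FPKM in PAL and 1.47, 1.45 and 1.23 FPKM in control, a difference of 0.36 ± 0.08 (adjusted p = 0.0152). ZNF324, outside the naming rule, had 2.14, 2.12 and 2.14 FPKM in PAL and 2.72, 2.74 and 2.47 FPKM in control, a difference of -0.22 ± 0.06 (adjusted p = 0.0309). Of the 31-base words, 17.7% in ZNF324B and 37.1% in ZNF324 occur in another gene, and both calls are fragile. That of ZNF324B was lost without PAL replicate 2 or 3 or without both libraries numbered 3 (adjusted p of up to 0.0891). That of ZNF324 was lost without any PAL library or control replicate 1 or 2 (adjusted p of up to 0.0962).

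The block from ZNF101 to ZNF254 (19.7 to 24.1 Mb), a primate-expanded KRAB cluster, had 37 members and 24 tested. Of these, 4 were higher (16.7%, against 11.4% of all genes tested) and 2 lower (8.33%, against 14.5%). ZNF681 had 1.58, 1.40 and 1.54 FPKM in PAL and 0.865, 0.831 and 0.646 FPKM in control, with no overlap (0.49 ± 0.08, adjusted p = 0.00636). Its neighbour ZNF726 had 1.30, 1.38 and 1.11 FPKM in PAL and 0.924, 0.698 and 0.780 FPKM in control (0.33 ± 0.09, adjusted p = 0.0325). ZNF253 had 1.71, 2.26 and 1.83 FPKM in PAL and 1.55, 1.21 and 1.07 FPKM in control (0.37 ± 0.11, adjusted p = 0.0468). The groups did not overlap in any of the 3, but ZNF681 and ZNF726 passed the filter through PAL values alone and so had to be higher there. The ZNF726 call was lost without PAL replicate 1 or 2 or control replicate 2 or 3 (adjusted p of up to 0.107). The ZNF253 call was lost without any PAL library or control replicate 2 or 3. Both calls were also lost without both libraries numbered 3 (adjusted p of 0.083 for ZNF726 and 0.156 for ZNF253).

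**Figure D3:**
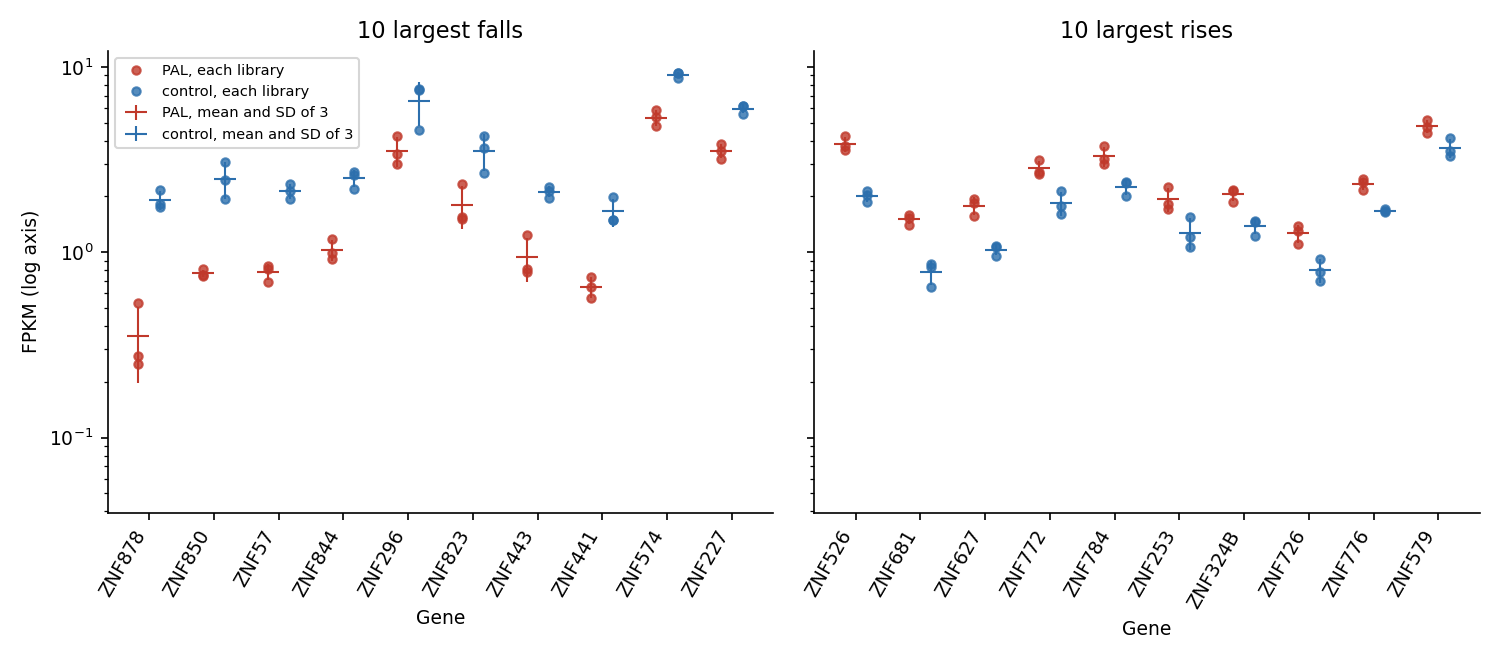
FPKM (log axis) of the 10 ZNF genes with the largest falls (left) and the 10 with the largest rises (right), with points for each PAL (red, left of each pair) and control (blue) library and bars for mean and SD of 3. The 20 genes were selected for values that do not overlap, and ZNF878 shows the widest gap.

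Members with well studied roles were chosen for those roles after their values were seen. ZNF91 and ZNF93, which repress SVA and LINE-1 retrotransposons, did not pass: ZNF91 stood at 1.58 ± 0.200 FPKM in PAL and 1.38 ± 0.0376 in control (adjusted p = 0.318), and ZNF93 at 1.10 ± 0.152 and 1.47 ± 0.0645 (adjusted p = 0.0739). ZNF93 was called lower with voom on the recovered reads (-0.42, adjusted p = 0.0279) and without the variance trend (-0.23, adjusted p = 0.0402). ZNF274, a KRAB protein that binds the coding ends of other ZNF genes and recruits SETDB1 there, was lower (2.84 ± 0.232 FPKM in PAL and 3.80 ± 0.451 in control, -0.32, adjusted p = 0.03). That call was lost without any PAL library or control replicate 1 or 3, with an adjusted p of up to 0.0974. ZNF473, a factor of histone pre-mRNA processing, had 2.96, 3.18 and 3.56 FPKM in PAL and 4.79, 4.90 and 5.33 FPKM in control, a fall of 0.51 on the log2 scale (adjusted p = 0.00297) that held in every alternative.

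**Figure D4:**
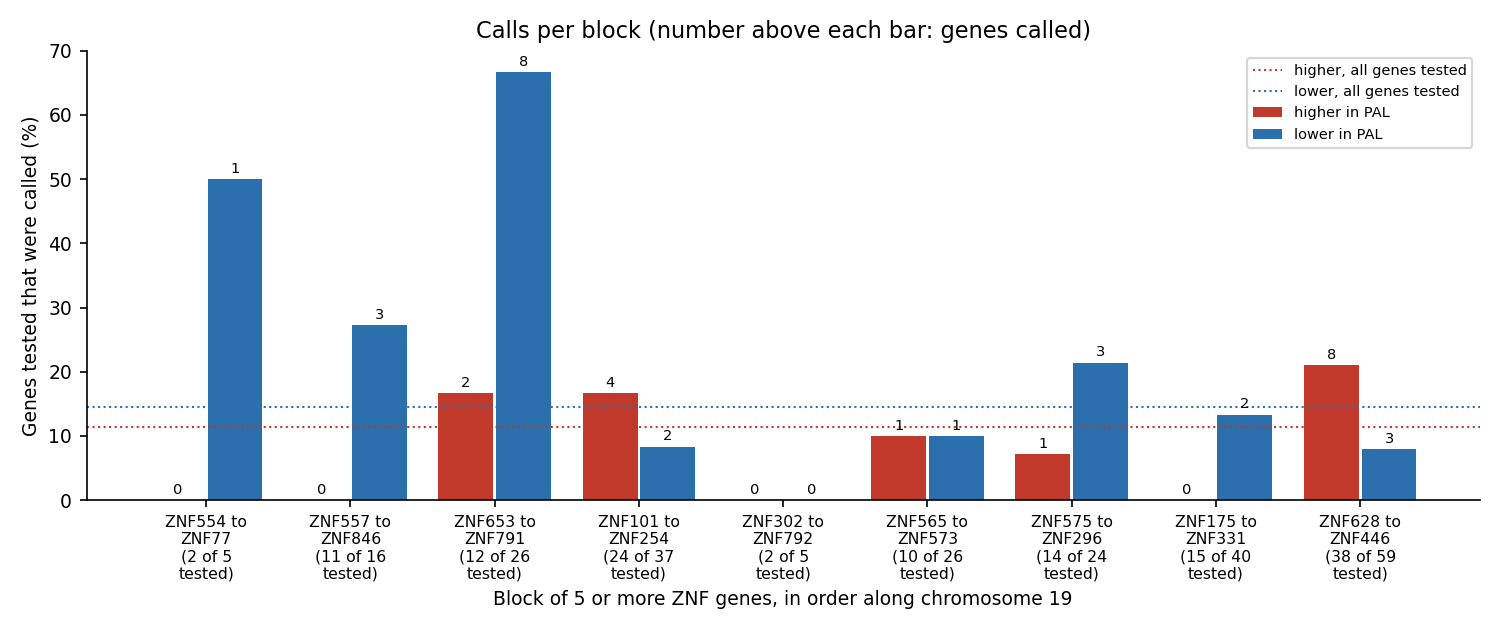
Percent of tested ZNF genes called higher (red) and lower (blue) in PAL in each of 9 blocks, with the number of genes above each bar and dotted lines for all genes tested (11.4% higher, 14.5% lower). Falls reach 66.7% of tested genes in the block from ZNF653 to ZNF791, while blocks with 2 tested genes give shares of little weight. ZNF878 and ZNF441 of that block from ZNF653 to ZNF791 passed the filter through control values alone and so had to be low in PAL.

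Of the tested members that follow each other along the chromosome, 15 pairs within a block were both called, 10 in the same direction and 5 in opposite ones. In the block of ZNF878, 6 of 8 such pairs were alike, and in the other blocks 4 of 7. These counts are a description, with no test. A KRAB A box pattern was found in the longest annotated protein of 211 members. Of the 104 tested, 11 were higher and 21 lower, with a median log2 difference of -0.03. Of the 28 tested members without the pattern, 6 were higher and 4 lower, with a median of 0.10, and 22 of the 28 differences lay above 0. The shares called were 30.8% with the pattern and 35.7% without it, beside 25.9% of all genes tested. Finger matches ran from 0 to 36, the most in ZNF208, with a median of 12. Members with more than 12 fingers had 6 rises and 15 falls among 62 tested, and the others 11 rises and 10 falls among 70, or 33.9% and 30% called. No difference between these groups was tested, and those without KRAB were also the more highly expressed, with a median of 2.83 FPKM against 0.96 FPKM.

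Of 22 cofactors of KRAB silencing, all tested, 3 were higher and 5 lower, with a median log2 difference of -0.02. That is 36.4% called, beside 25.9% of all genes tested. The split depended on the scaling, with 7 higher and 2 lower under TPM and 8 higher and 2 lower under plain read totals. With 1 library left out there were 4 to 5 calls (18.2% to 22.7%, beside 15.1% to 22.8% of all genes tested). Without both libraries numbered 3 there were 4 calls, 1 higher and 3 lower (18.2%, beside 18.5% of all genes tested). TRIM28, the corepressor that KRAB binds, had 242, 243 and 246 FPKM in PAL and 236, 231 and 238 FPKM in control, without overlap but at a log2 difference of 0.05 (adjusted p = 0.127). It was called higher under TPM (0.12, adjusted p = 0.00835), quantile normalization (0.15, adjusted p = 0.00844) and plain read totals (0.14, adjusted p = 0.00413). SETDB1 had 9.04, 8.51 and 9.15 FPKM in PAL and 8.30, 8.09 and 8.26 FPKM in control (0.10, adjusted p = 0.102), and was called higher under TPM (adjusted p = 0.0276) and plain read totals (adjusted p = 0.0153). The heterochromatin protein gene CBX5 was higher by 0.21 on the log2 scale and the histone chaperone gene DAXX by 0.12, a DAXX call lost without any 1 of the 6 libraries. ATRX, which acts with DAXX, was lower (3.95 ± 0.0687 FPKM in PAL and 4.97 ± 0.103 in control, -0.27, adjusted p = 0.00525). CHD3, a remodeller bound by TRIM28, was lower as well (10.9 ± 0.174 and 13.1 ± 0.622 FPKM, -0.24, adjusted p = 0.0079).

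The 117 members below the filter had a median of 0.432 FPKM. Just outside it stood ZNF780B, at 1.04 and 0.909 FPKM in PAL and control, and ZNF888, at 0.860 and 1.07. Counting every member with at least 10 reads in 3 libraries, with limma's voom on the recovered reads, 221 were tested and 31 were higher and 36 lower (background 26.7%). Of 89 members tested in this way alone, 14 were called, 6 higher and 8 lower. The 26.7% is no like background for these 89, since it also covers the more highly expressed genes that passed the FPKM filter. With voom there were 3892 calls among the 12258 genes of that filter and 4138 among 15481 with at least 10 reads. The number of calls thus grew little with the added genes. Whether the share of the 89 differs from that of other added genes was not tested. ZNF8 had 116, 122 and 118 reads in PAL and 49, 62 and 64 in control, a log2 difference of 0.81 ± 0.17 (adjusted p = 0.00128). ZNF600 had 44, 33 and 67 reads in PAL and 77, 82 and 85 in control (-1.01 ± 0.21, adjusted p = 0.00126), and ZNF701 had 65, 80 and 78 in PAL and 111, 113 and 133 in control (-0.90 ± 0.16, adjusted p = 0.000327). These 3 did not overlap between groups, but they were picked from the calls after their values were seen. ZNF799 and ZNF442, both in the block of ZNF878, were lower too (-0.92 and -1.48), but their raw reads overlapped between groups. ZNF799 had 31, 37 and 48 reads in PAL and 82, 64 and 46 in control. ZNF442 had only 4, 7 and 15 in PAL and 21, 23 and 14 in control, so its large difference rests on few reads. Under this test the block thus had 10 falls, and the 2 rises of the block were higher here too. Over all genes tested 15.4% were lower. Not all of the block's 26 members had enough reads for this test, so 10 of 26 is not a like share. All members named in this paragraph were outside the naming rule and were chosen after their values were seen.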

How the data were processed

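RNA of 6 A375 libraries, 3 PAL and 3 control, was poly-A enriched, per the labels' protocols, and groups and replicate numbers come from the sample titles. The authors deposited 1 table of FPKM values per gene and library, beside each gene's length and biotype, per the file headers. Per the submitters' processing notes the build is hg38. Which aligner and counter were run, and whether strand was used, is not given in the sources used. PAL columns are marked 64, a number of unknown meaning. All 58735 genes have the starts and ends of GENCODE 29. FPKM times gene length gave whole reads for 100% of values, within 0.01 read, and depth was 15064971 to 17711389 assigned reads.

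The test covered genes reaching 1 FPKM in 3 or more libraries and used limma 3.58.1 (R 4.3.3) on log2(FPKM + 1), with a variance trend, two-sided, with Benjamini-Hochberg adjustment over all 12258 genes and a threshold of 0.05. The method of the main limma fit, and no other step, was checked on simulated reads with known changes. The members and lists were chosen with earlier results of these data known. Genes named are the 10 largest rises and 10 largest falls without overlap, the 3 highest members, the largest change in each block of 5 or more, TRIM28, SETDB1 and up to 2 rises and 2 falls among 22 KRAB cofactors; others are marked as chosen later. KRAB and finger patterns were counted in translations of the longest GENCODE 29 coding sequence, and 31-base words shared with another gene's transcripts measured relatedness. Alternatives covered pseudocount, filter, scaling, voom, variance trend, a replicate block, block gaps of 0.5 and 2 Mb, and each library left out. Added after seeing the data were leaving out both libraries numbered 3 and voom on genes with at least 10 reads. Replicates differed beyond counting noise, with chi-square per degree of freedom of 1.92 to 3.71 within groups. Figures were drawn with matplotlib 3.10.9.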

Additional observations from a re-analysis of the deposited data

How the results depend on the processing

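Depth limits the lower members, since few reads stand behind them, and 3 libraries a group limit the precision. Of 608 comparisons of a named gene with an alternative, 524 kept direction and side of the threshold, 70 lost the call, 7 gained it (ZNF146, TRIM28 and SETDB1, under rescaling) and 7 turned sign. The sign changes were those of ZNF787, which had no call in any setting: its -0.00 became 0.07 under TPM, 0.03 under quantile normalization, 0.08 under plain read totals, 0.02 without both libraries numbered 3, and -0.02 to 0.03 with 1 library left out (0.03 without PAL replicate 3, 0.01 without control replicate 1 and 0.00 without control replicate 2). The 42 member calls became 22 of 246 with no filter (8.94%, against 7.13% of all genes tested) and 26 of 132 with a replicate block (19.7%, against 17.4%). They became 27 of 132 without both libraries numbered 3 (20.5%, against 18.5%) and 67 of 221 with voom on genes with at least 10 reads (30.3%, against 26.7%). With 1 library left out they came to 22 to 33 of 132 (16.7% to 25%, against 15.1% to 22.8%). The 17 rises became 8 with no filter, 27 under TPM, 32 under plain read totals, 26 with voom, 9 without both libraries numbered 3, 31 with voom at 10 reads, and 9 to 14 with 1 library left out. The 25 falls became 14 with no filter, 14 with a replicate block, and 13 to 20 with 1 library left out. The 8 falls in the block of ZNF878 became 4 with no filter, 4 with a replicate block, and 4 to 6 with 1 library left out. The 8 rises in the block of ZNF865 became 4 with no filter, 13 under plain read totals, 4 without both libraries numbered 3, 13 with voom at 10 reads, 5 with a block gap of 0.5 Mb, and 5 to 8 with 1 library left out. The median of 0.01 became 0.08 under TPM, 0.07 under plain read totals and 0.06 with voom at 10 reads. The 3179 calls over all genes became 2103 with no filter and 1855 to 2789 with 1 library left out. The cause of these shifts was not tested, except that fewer libraries or more genes enter some fits by construction. The replicate numbers did not pair the samples: deviations of same-numbered libraries correlated at -0.024, 0.027 and -0.045, and not every library correlated best with its own number. With the replicate block all genes gave 2131 calls. A planned edgeR test on recovered reads was not run.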
